A study of Mus musculus with 12 samples.

Results

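The genes described here belong to families of amino acid transporters of the plasma membrane and the lysosome. Every gene of the liver RNA-Seq table was taken whose symbol begins with Slc1a, Slc3a, Slc6a, Slc7a, Slc36a, Slc38a or Slc43a followed by a number. Of 17432 genes, 56 matched. The 32 with a mean of at least 10 counts over the 12 libraries were described, and all 32 passed the filter on low counts and were tested. Slc38a1 lay just inside the limit with a mean of 10.5 counts, and Slc7a1 just outside it with 8.12. One of the 32, Slc7a6os, is named for lying opposite Slc7a6 and is not itself a transporter gene.

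Livers came from 12 wild-type (WT) male C57BL/6J mice aged 8 to 10 weeks. All of the mice were trained for 3 days to eat by day and fast by night. On each of those days they were placed on the still treadmill with its shock grids on, and then made to run briefly. They were refed before the experiment. The Exercise group (6 mice) then ran postprandially for 3 hours at a belt speed of 14 m/min, and the Sedentary group (6 mice) did not run. Food was taken away from both groups when the run began, and livers were collected together at its end. The comparison asks how the run changed liver RNA in mice that had eaten. The labels give each liver as a separate sample, and p-values measure the spread between these samples.

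Amino acid transporters move amino acids across membranes, often coupled to sodium, to protons or to the exchange of another amino acid. In hepatocytes they bring in glutamine, alanine and arginine for gluconeogenesis and the urea cycle, and they release glutamine and glutamate. Others sit in the lysosomal membrane, where they export the products of protein breakdown and take part in signaling to the growth kinase mTORC1. The SLC7 light subunits are carriers that need an SLC3 heavy subunit to reach the plasma membrane.

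Stretches of promoter sequence are shown for the 3 changed genes with a motif match in the RefSeq windows (GRCm38.p6). They were chosen for the match and the call, whichever way the gene moved. All 3 fell after exercise, and each match lies close to the annotated start. Each stretch holds 60 bases before an annotated transcript start and 10 from the start on, written 5′ to 3′ on the strand of the gene. Capitals mark CACGTG (the E-box bound by basic helix-loop-helix factors) in Slc36a1 and Slc38a7, and the complement of TGATGNAA (the core of the element bound by ATF4 with C/EBP factors) in Slc1a4. The Slc36a1 stretch lies at chr11:55204280-55204349 on the plus strand, the Slc38a7 stretch at chr8:95853482-95853551 on the minus strand, and the Slc1a4 stretch at chr11:20332704-20332773 on the minus strand.
Slc36a1: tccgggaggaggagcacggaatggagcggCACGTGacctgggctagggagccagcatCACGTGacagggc
Slc38a7: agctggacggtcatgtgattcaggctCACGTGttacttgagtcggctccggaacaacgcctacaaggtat
Slc1a4: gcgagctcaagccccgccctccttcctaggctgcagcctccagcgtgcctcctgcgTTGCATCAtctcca

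The E-boxes of Slc36a1 begin 31 and 3 bases before the start, that of Slc38a7 begins 34 bases before it, and the element of Slc1a4 begins 4 bases before it. RefSeq windows of 300 bases (250 before a start and 50 after it) were matched for 23 of the 32 genes. The 9 others were Slc1a5, Slc6a6, Slc6a8, Slc7a2, Slc7a4, Slc7a5, Slc38a1, Slc38a3 and Slc43a3. On either strand, CACGTG was found in 6 of the 23 (26.1%), against 7.15% of all windows and 11.5% of the tested genes with a window. Of these 6 genes, Slc36a1 and Slc38a7 were lower after exercise, and Slc1a6, Slc1a7, Slc43a1 and Slc7a14 did not pass the test. In those that did not pass, the E-box begins 32, 60, 64 and 69 bases before a start, in that order. TGATGNAA was found in Slc1a4 and Slc7a7 (8.70%, against 3.97% of all windows and 2.85% of the tested genes with a window). In Slc7a7, which did not pass the test, matches begin 1 and 141 bases before the same annotated start. The cAMP response element TGACGTCA was found in Slc38a6 (4.35%, against 1.79% of all windows and 3.40% of the tested genes with a window). The FOXO element GTAAACA was found in 0 of the 23, against 3.65% of all windows and 3.24% of the tested genes with a window. None of the 4 motifs contains another, and a match describes the sequence only.

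The libraries held 18745379 to 19324461 counts each, and 12344 genes were tested between the groups by the quasi-likelihood test of edgeR, with p-values adjusted by the Benjamini-Hochberg method and a threshold of 0.05. Levels are TMM-scaled CPM (each count over its library's total, scaled by edgeR's TMM factors), and log2 fold changes are exercise over sedentary. Of 6 hepatocyte markers, 3 rose (Alb by 0.24, Hnf4a by 0.59 and Tat by 1.83 on the log2 scale) and 3 did not pass the test (Apoa1, Ttr and Cyp3a11), and the list summed to 109724 to 149684 CPM in sedentary livers and 138329 to 158147 CPM in exercised livers. Of the Kupffer cell markers, 0 of 6 passed the test (summed 40.3 to 67.3 CPM sedentary, 48.6 to 74.8 CPM exercise), and of the bile duct markers 0 of the 5 tested. Of 5 endothelial markers 2 rose and 1 fell (summed 105 to 141 CPM, and 118 to 174 CPM), and of 5 stellate cell markers 2 fell (summed 139 to 185 CPM, and 130 to 191 CPM). Leukocyte markers summed to no more than 2.29 CPM in any liver. In whole liver, fewer cells of a type and less RNA per cell cannot be told apart.

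After exercise, as many of the liver's expressed transporter genes were higher as were lower. Of the 32, 16 passed the test (50%, against 42.4% of all genes tested). Higher after exercise were 8 (25.0%, against 21.1%), and lower were 8 (25.0%, against 21.3%). The largest rises were those of the arginine carrier Slc7a2 and the system A carriers Slc38a2 and Slc38a4, and the largest falls those of the serine and alanine carrier Slc1a4, the taurine carrier Slc6a6 and the lysosomal carrier Slc36a1. The median log2 fold change of the 32 was -0.03, and that of all genes tested was -0.0028. For 11 of the 32 (34.4%) the CPM values of the groups did not overlap, against 22.3% of all genes tested. Changes of at least 2-fold that passed the test were found for 4 of the 32, against 486 of all 12344 genes tested (3.94%). The 4 were Slc7a2, Slc38a2, Slc1a4 and Slc6a6. Leaving out Slc7a6os left the 8 and 8 as they were, among 31. The 8 higher genes include Slc43a3, which is known as a carrier of purine bases rather than of amino acids.

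**Figure D1:**
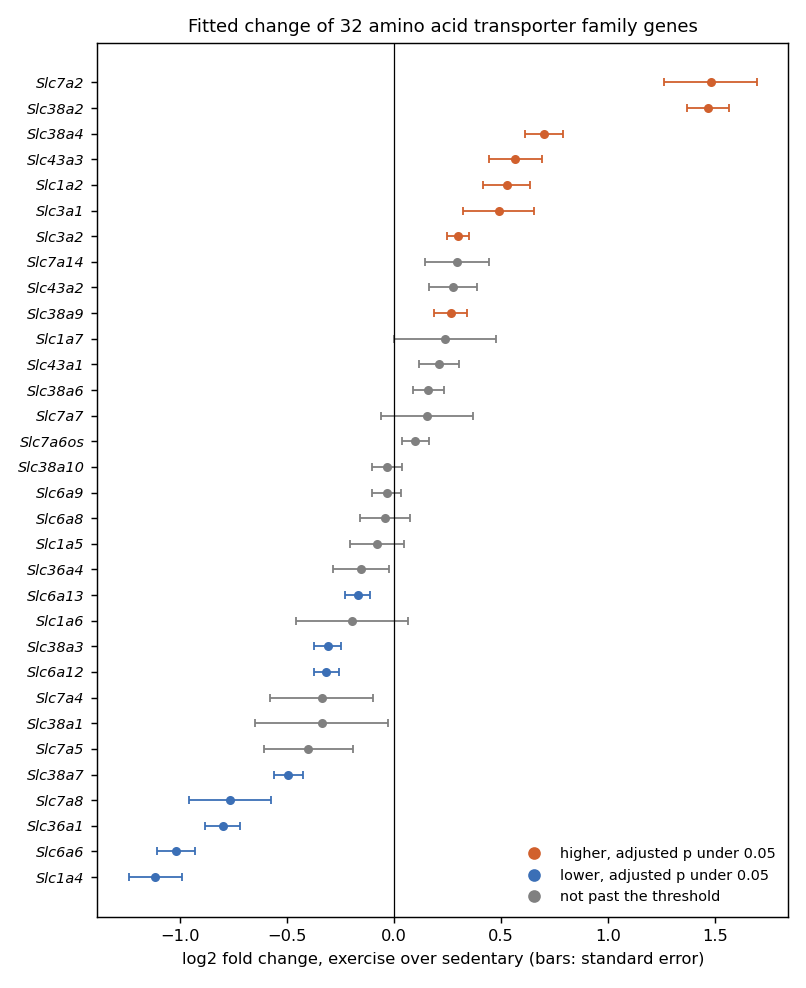
The log2 fold change (exercise over sedentary, horizontal axis) of the 32 genes, with bars for the standard error of edgeR's fit and colours for the 8 higher, the 8 lower and the 16 that did not pass the test. The points run from -1.11 (Slc1a4) to 1.48 (Slc7a2), and Slc7a2 and Slc38a2 stand apart from the rest at the upper end.

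Of the 8 genes of the SLC38 family, the largest family described, 3 were higher, 2 were lower and 3 did not pass the test (62.5% called, against 42.4% of all genes tested). Slc38a2 (SNAT2, chr15:96687392-96699728) is a sodium-coupled system A carrier that takes up small neutral amino acids such as alanine and is known to be induced by amino acid shortage. In sedentary livers Slc38a2 ran from 64.3 to 101 CPM with a median of 84.6, and in exercised livers from 207 to 269 CPM with a median of 228. Its log2 fold change was 1.47 (2.76-fold, standard error 0.098, adjusted p = 2.55e-08 by edgeR). Every exercised liver held more than every sedentary one. Slc38a4 (SNAT4, chr15:96994816-97055956), a system A carrier largely restricted to liver, lies 295 kb from Slc38a2. Its levels were 426 to 659 CPM (median 559) in sedentary livers and 828 to 997 CPM (median 869) in exercised livers, a log2 fold change of 0.70 (1.63-fold, standard error 0.089, adjusted p = 8.01e-06 by edgeR). The groups did not overlap, and the highest value was that of Exercise replicate 3. Slc38a1, the third system A gene of this stretch of chromosome 15, lies 44.0 kb from Slc38a2 and had a mean of 10.5 counts, with a log2 fold change of -0.34 (adjusted p = 0.412 by edgeR).

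Slc38a3 (SNAT3, chr9:107651154-107668968), the system N carrier through which hepatocytes exchange glutamine with the blood, went the other way. Its levels were 836 to 968 CPM (median 907) in sedentary livers and 678 to 837 CPM (median 709) in exercised livers. It fell by 0.31 on the log2 scale (standard error 0.063, adjusted p = 0.000731 by edgeR, two-sided exact permutation p = 0.00433). The groups overlapped, since Exercise replicate 3, at 837 CPM, stood above the lowest sedentary liver at 836 CPM. Two-sided exact permutation tests on single genes used mean log2(CPM + 0.5) over all 924 relabellings, and each of the 11 genes whose groups did not overlap gave 0.00216, the smallest p that 6 livers against 6 allow.

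The lysosomal members of the family moved in both directions. Slc38a9, the lysosomal arginine sensor of mTORC1, had 7.59 to 9.04 CPM (median 8.38) in sedentary livers and 9.09 to 10.8 CPM (median 10.3) in exercised livers. It rose by a log2 fold change of 0.27 (adjusted p = 0.0103 by edgeR) with no overlap. The call was lost when counts were scaled by library size alone, where the change was 0.17 and that of the median gene -0.098. It was also lost with limma on log2(FPKM + 1), where the change was 0.10 and that of the median gene -0.066. With limma on log2(FPKM + 0.1), where the median gene was at -0.093, the call was lost too. Slc38a7 (chr8:95835920-95853577), a glutamine carrier reported at the lysosome, had 16.8 to 21.3 CPM (median 19.3) in sedentary livers and 12.2 to 14.5 CPM (median 13.8) in exercised livers. It fell by 0.49 on the log2 scale (standard error 0.068, adjusted p = 2.00e-05 by edgeR), and the groups did not overlap. Slc38a6 and Slc38a10, whose roles in liver are less well defined, did not pass the test. Slc38a6 had 31.4 to 41.1 CPM (median 36.3) in sedentary livers and 36.3 to 45.9 CPM (median 39.9) in exercised livers, with a log2 fold change of 0.16 (adjusted p = 0.0854 by edgeR). Slc38a10 had 55.8 to 70.9 CPM (median 60.5) in sedentary livers and 55.2 to 67.0 CPM (median 61.3) in exercised livers.

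**Figure D2:**
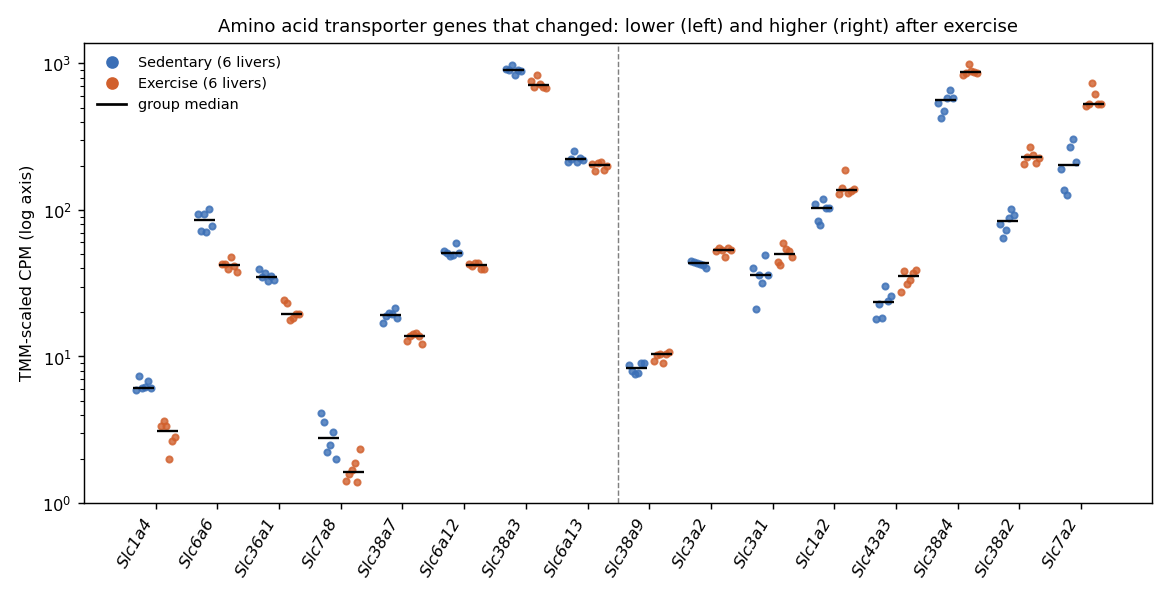
TMM-scaled CPM (vertical log axis) of each liver for the 16 genes that passed the test, with the 8 lower after exercise left of the dashed line and the 8 higher right of it, and with a bar at each group's median. The sedentary livers are spread widely for Slc7a2 (126 to 306 CPM) and narrowly for Slc3a2 (40.0 to 44.9 CPM).

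Of the 3 tested SLC7 cationic amino acid transporters, Slc7a2 rose and 2 others did not pass the test (33.3% called, against 42.4% of all genes tested). Slc7a2 (CAT2, chr8:40862341-40922070) carries arginine, lysine and ornithine and is the main cationic carrier of hepatocytes. In sedentary livers Slc7a2 ran from 126 to 306 CPM with a median of 201, and in exercised livers from 516 to 734 CPM with a median of 530. Its log2 fold change was 1.48 (2.79-fold, standard error 0.217, adjusted p = 0.000249 by edgeR), the largest of the 32. Every exercised liver held more than every sedentary one, and the sedentary livers were spread over more than 2-fold. Slc7a1 (CAT1), the cationic carrier of most other cells, had 4 to 12 counts per library. Slc7a14, a related lysosomal protein, and Slc7a4, whose transport activity is uncertain, had log2 fold changes of 0.29 (adjusted p = 0.127 by edgeR) and -0.34 (adjusted p = 0.28 by edgeR).

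Both heavy subunits rose (2 of 2, against 21.1% of all genes tested). Of the 3 light subunits tested, 0 rose and 1 fell (33.3%, against 21.3%). Slc3a2 (the heavy chain 4F2hc, chr19:8706882-8723369) is the partner of most light subunits. Its levels were 40.0 to 44.9 CPM (median 43.3) in sedentary livers and 47.8 to 55.1 CPM (median 53.2) in exercised livers, a rise of 0.30 on the log2 scale (standard error 0.052, adjusted p = 0.000174 by edgeR). The groups did not overlap, but the call was lost with limma on log2(FPKM + 0.1), where the log2 fold change of the median gene was -0.093. Slc3a1 (the heavy chain rBAT, chr17:85028347-85064241) is known from the kidney and the gut as the partner of Slc7a9. Its levels were 21.2 to 48.9 CPM (median 36.02) in sedentary livers and 42.1 to 59.7 CPM (median 50.05) in exercised livers, a rise of 0.49 on the log2 scale (standard error 0.165, adjusted p = 0.0316 by edgeR, two-sided exact permutation p = 0.0108). The groups overlapped, and the call was lost in 6 of 12 fits that each left out 1 liver (without Exercise replicate 3, 4 or 5, or Sedentary replicate 3, 4 or 6), where the log2 fold change was as low as 0.38. The call was also lost with no filter beyond 1 count, and, at 0.46, without Exercise replicates 1 and 3 together (adjusted p = 0.0869 by edgeR). Slc3a1 overlaps Prepl on the opposite strand, whose log2 fold change was 0.11 (adjusted p = 0.173 by edgeR), and the sources used here do not say whether reads were counted by strand.

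The light subunits were scarce beside their heavy chains. On the scale of fragments per length of transcript and depth of sequencing (FPKM), which allows levels of different genes to be set side by side, Slc3a2 had means of 21.2 ± 2.18 FPKM (SD, n = 6) in sedentary livers and 24.5 ± 2.13 FPKM in exercised livers. Its partners Slc7a7, Slc7a8 and Slc7a5 had means of at most 1.22 FPKM in either group. Slc7a9 had 1 count in 1 library and 0 in the other 11, each of which allows up to 3 counts, while Slc3a1 had a mean of 806 counts. The cystine and glutamate exchanger Slc7a11 had 0 to 2 counts per library. Slc7a8 (LAT2, chr14:54722215-54781886), an exchanger of neutral amino acids, had 1.99 to 4.10 CPM (median 2.76) in sedentary livers and 1.39 to 2.32 CPM (median 1.62) in exercised livers. It fell by 0.77 on the log2 scale (standard error 0.191, adjusted p = 0.00355 by edgeR, two-sided exact permutation p = 0.00649), and the groups overlapped. With limma on log2(FPKM + 1) the change of Slc7a8 was -0.42. The leucine carrier Slc7a5 (LAT1) and the cationic exchanger Slc7a7 did not pass the test, with log2 fold changes of -0.40 (adjusted p = 0.134 by edgeR) and 0.16 (adjusted p = 0.601 by edgeR). Slc7a7 overlaps Oxa1l on the opposite strand, which fell by 0.35 on the log2 scale (adjusted p = 2.7e-05 by edgeR).

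Of the SLC6 genes, which couple transport to sodium and chloride, 0 rose (against 21.1% of all genes tested), 3 of 5 fell (against 21.3%) and 2 did not pass the test. One of the 3 falls, that of Slc6a13, was lost in some fits, as given with its values. Slc6a6 (TauT, chr6:91684048-91759063) takes up taurine, which hepatocytes conjugate to bile acids. In sedentary livers Slc6a6 ran from 70.8 to 101 CPM with a median of 85.6, and in exercised livers from 37.5 to 47.9 CPM with a median of 41.9. It fell by 1.02 on the log2 scale (2.02-fold lower, standard error 0.090, adjusted p = 2.48e-07 by edgeR), with no overlap. Heart and skeletal muscle also express Slc6a6, and all 3 tested markers of muscle and heart fell. Their list summed to 9.63 to 19.7 CPM in sedentary livers and to 0 to 9.79 CPM in exercised livers. The part of muscle RNA in the fall of Slc6a6 was not tested.

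The neighbours Slc6a13 and Slc6a12, which lie 4.85 kb apart on chromosome 6, both fell by a little. Slc6a12 (BGT1, chr6:121342574-121365773) carries betaine and GABA. Its levels were 48.1 to 59.4 CPM (median 51.0) in sedentary livers and 39.5 to 43.4 CPM (median 42.2) in exercised livers, and it fell by 0.32 on the log2 scale (standard error 0.058, adjusted p = 0.000300 by edgeR) with no overlap. Slc6a13 (GAT2, chr6:121300288-121337721), the GABA and taurine carrier of hepatocytes, had 211 to 254 CPM (median 221) in sedentary livers and 184 to 213 CPM (median 203) in exercised livers. It fell by 0.17 on the log2 scale (standard error 0.060, adjusted p = 0.0298 by edgeR, two-sided exact permutation p = 0.00649). The groups overlapped, and the call was lost in 5 of the 12 fits that left out 1 liver (without Exercise replicate 2, 5 or 6, or Sedentary replicate 3 or 5), where the change was as small as -0.13. Scaled by library size alone the log2 fold change of Slc6a13 was -0.27, and that of the median gene was -0.098. With limma on log2(FPKM + 0.1) the change of Slc6a13 was -0.29, and that of the median gene was -0.093. The glycine carrier Slc6a9 had 21.9 to 27.6 CPM (median 26.8) in sedentary livers and 22.7 to 27.3 CPM (median 24.9) in exercised livers and did not pass the test, nor did the creatine carrier Slc6a8.

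In the SLC1 family the glutamate carrier of pericentral hepatocytes rose and a neutral amino acid exchanger fell. The 3 other genes did not pass the test (40.0% called, against 42.4% of all genes tested). Slc1a2 (GLT1, chr2:102658239-102790784) takes up glutamate. Its levels were 79.1 to 119 CPM (median 103) in sedentary livers and 128 to 188 CPM (median 136) in exercised livers, with a log2 fold change of 0.53 (1.44-fold, standard error 0.112, adjusted p = 0.00151 by edgeR). The groups did not overlap, and without the highest liver, Exercise replicate 3, the log2 fold change was 0.44. On the log2 scale of FPKM the change of Slc1a2 was smaller, 0.32 with an added 0.1 and 0.30 with an added 1 (adjusted p = 0.0157 and 0.0094 by limma). The median of all genes was -0.093 and -0.066 in those fits. Of 5 genes listed as pericentral markers, 0 rose and 2 fell, namely glutamine synthetase (Glul), by 0.74 on the log2 scale (adjusted p = 4.08e-07 by edgeR), and Lgr5, by 0.68 (adjusted p = 0.00622 by edgeR). Their list summed to 6708 to 8419 CPM in sedentary livers and 7234 to 9948 CPM in exercised livers, most of it from Cyp2e1, and its part in the rise of Slc1a2 was not tested. Slc1a4 (ASCT1, chr11:20302180-20332713), whose promoter is shown above, exchanges alanine, serine, cysteine and threonine. In sedentary livers Slc1a4 ran from 5.95 to 7.35 CPM with a median of 6.13, and in exercised livers from 1.98 to 3.60 CPM with a median of 3.08. It fell by 1.11 on the log2 scale (2.16-fold lower, standard error 0.126, adjusted p = 2.46e-06 by edgeR), the largest fall of the 32, with no overlap. On the scale of log2(FPKM + 1), which understates changes of scarce genes, it fell by 0.64 (adjusted p = 4.67e-06 by limma). Its relative Slc1a5 (ASCT2), a glutamine carrier of growing cells, had a log2 fold change of -0.08 (adjusted p = 0.645 by edgeR).

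The proton-coupled Slc36a1 (PAT1, chr11:55204322-55236330), with 2 E-boxes in the stretch shown above, exports small amino acids from the lysosome and has been tied to mTORC1 activation. Its levels were 32.9 to 39.7 CPM (median 35.1) in sedentary livers and 17.6 to 24.5 CPM (median 19.4) in exercised livers. It fell by 0.80 on the log2 scale (1.74-fold lower, standard error 0.081, adjusted p = 7.27e-07 by edgeR), and the groups did not overlap. Slc36a4, its relative, had a log2 fold change of -0.15 (adjusted p = 0.366 by edgeR). In the SLC43 family only Slc43a3 of 3 genes passed the test in this fit (33.3%, against 42.4% of all genes tested). Slc43a3 (chr2:84936545-84958509), known as a carrier of purine bases rather than of amino acids, had 18.0 to 30.3 CPM (median 23.4) in sedentary livers and 27.7 to 38.8 CPM (median 35.2) in exercised livers. It rose by 0.57 on the log2 scale (standard error 0.123, adjusted p = 0.00183 by edgeR, two-sided exact permutation p = 0.00433), and the groups overlapped. The leucine carriers Slc43a1 and Slc43a2 had log2 fold changes of 0.21 (adjusted p = 0.0844 by edgeR) and 0.28 (adjusted p = 0.0537 by edgeR), and Slc43a2 passed the threshold with DESeq2 and with limma-voom.

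Many genes of these families had few or no counts in liver. The 24 matched genes under the limit had 0 to 12 counts in any library, among them the epithelial neutral carrier Slc6a19, the neuronal and renal glutamate carrier Slc1a1 and the glial Slc1a3. Slc7a6os had 11.6 to 13.3 CPM (median 12.3) in sedentary livers and 12.3 to 14.3 CPM (median 13.3) in exercised livers and did not pass the test. The other genes that did not pass it had group means of 0.485 to 8.51 CPM, except Slc6a9, Slc38a6 and Slc38a10, whose values are given above. Their log2 fold changes ran from -0.40 (Slc7a5) to 0.29 (Slc7a14), and a change of that size was not detectable for the scarcest, such as Slc38a1, whose standard error was 0.31.

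By FPKM, 3 carriers made up most of the transporter RNA in both groups. Slc38a3, Slc38a4 and Slc6a13 together held 72.7% to 76.0% (median 74.0%) of the summed FPKM of the 32 genes in sedentary livers and 66.6% to 68.8% (median 67.0%) in exercised livers. The summed FPKM itself was 864 to 893 (median 872) in sedentary livers and 873 to 959 (median 899) in exercised livers. These sums are not corrected for the shift of FPKM against CPM between the groups, -0.11 on the log2 scale for the median gene. The share of Slc38a3 was 41.3% to 47.1% in sedentary livers and 31.0% to 34.5% in exercised livers, and the share of Slc38a4 was 13.8% to 18.9% and 23.4% to 25.1%. The FPKM of Slc38a4 over that of Slc38a3 in the same liver, a ratio chosen after their values were seen and free of any scaling between libraries, was 0.294 to 0.453 (median 0.386) in sedentary livers and 0.677 to 0.797 (median 0.770) in exercised livers. Neither the shares nor this ratio overlapped between the groups.

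The order of the levels changed below these carriers. Mean FPKM in sedentary livers was 387 for Slc38a3, 145 for Slc38a4, 117 for Slc6a13, 27.7 for Slc7a2 and 24.2 for Slc1a2. Slc38a4 and Slc6a13 overlapped there, and so did most neighbours from Slc7a2 downward. In exercised livers the means were 292 for Slc38a3, 221 for Slc38a4, 95.6 for Slc6a13, 72.3 for Slc7a2 and 48.5 for Slc38a2, and none of these overlapped the next in order. Slc38a2 went from rank 8 to rank 5, and Slc6a6 from rank 11 to rank 15. In each liver FPKM was divided by CPM, and the log2 of this ratio was taken as a group median. Its difference (exercise minus sedentary) was -0.11 for the median gene. The difference was -0.36 for Slc7a8 and -0.21 for Slc1a2, which is -0.26 and -0.10 beyond the median, and 0.555% and 3.26% of genes lay at least as far from it. What sets these genes apart was not tested.

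**Figure D3:**
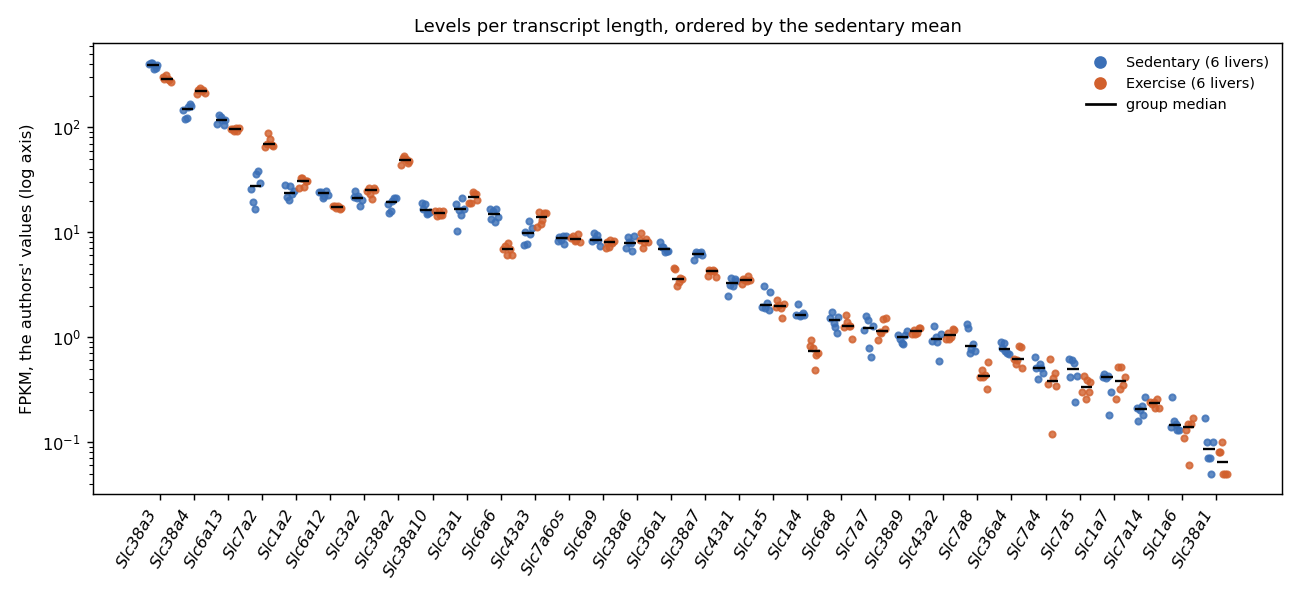
FPKM as deposited (vertical log axis) of each liver for the 32 genes, ordered by the sedentary mean, with a bar at each group's median. Slc38a3, Slc38a4 and Slc6a13 stand above the rest in both groups, and Slc7a2 and Slc38a2 rise out of the sedentary order.

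Genes that work with these carriers were counted in 4 lists, written by hand with earlier results of these data known. Of 9 tested genes for other amino acid transporters, 2 rose and 3 fell (55.6%, against 42.4% of all genes tested). The aromatic amino acid carrier Slc16a10 rose by a log2 fold change of 1.03 (adjusted p = 5.35e-06 by edgeR), and the lysosomal histidine and peptide carrier Slc15a4 by 0.82 (adjusted p = 2.71e-06 by edgeR). The lysosomal genes Mfsd12 (cysteine import) and Slc66a1 (export of cationic amino acids) fell, with log2 fold changes of -0.53 and -0.32, and so did Tmem104, at -0.28. Slc16a10 had 52.7 to 80.3 CPM in sedentary livers and 110 to 161 CPM in exercised livers, without overlap.

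Of 45 genes of amino acid breakdown and the urea cycle, 17 rose and 7 fell (53.3%), with a median log2 fold change of 0.07. Tat, which starts tyrosine breakdown, rose by 1.83 on the log2 scale, Got1 (aspartate transamination) by 1.76, Tdo2 (tryptophan breakdown) by 1.09 and Sdsl (serine dehydratase-like) by 0.93. Tat had 1274 to 1981 CPM in sedentary livers and 5166 to 5972 CPM in exercised livers. Among the genes of the list that fell were Bckdk, the kinase that restrains branched-chain amino acid breakdown (log2 fold change -0.80), and glutamine synthetase (Glul, -0.74). Neither of them breaks amino acids down. The proline oxidase Prodh (-0.34) and Gcsh of the glycine cleavage system (-0.22) also fell. The urea cycle genes Ass1 and Asl, which make arginine from citrulline, rose by log2 fold changes of 0.35 each (adjusted p = 0.00716 and 0.00215 by edgeR). Cps1 (0.23), Arg1 (0.22), Otc (0.02) and Nags (-0.13), the other urea cycle genes of the list, did not pass the test.

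Of 38 tested genes of amino acid sensing at the lysosome, 10 rose and 12 fell (57.9%), with a median of -0.08. Sesn2, a leucine sensor that restrains mTORC1, rose by a log2 fold change of 1.56 (adjusted p = 3.67e-06 by edgeR), from 2.43 to 5.87 CPM in sedentary livers to 9.45 to 12.7 CPM in exercised livers. Its relative Sesn1 rose by 0.52, and the GATOR complex member Wdr59 and the mTORC1 restraint Tsc1 by 0.55 and 0.49. Among the genes that fell were the leucyl-tRNA synthetase Lars (log2 fold change -0.66), the KICSTOR member Kptn (-0.51), the GATOR member Mios (-0.48) and the Ragulator anchor Lamtor1 (-0.41).

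Of 28 tested genes of the ATF4 amino acid response, 8 rose and 7 fell (53.6%), with a median of 0.04. Ddit4, a stress-induced restraint of mTORC1, rose by a log2 fold change of 3.74 (adjusted p = 1.47e-06 by edgeR), from 5.65 to 11.7 CPM in sedentary livers to 60.2 to 145 CPM in exercised livers. Cebpb rose by 1.34, Sesn2 (in both lists) by 1.56 and the phosphatase subunit Ppp1r15a by 0.71. The log2 fold change was -0.28 for Atf4 itself and -0.29 for the translation factor subunit Eif2s1. It was -1.88 for the hormone Fgf21 and -1.18 for the serine synthesis gene Psat1, and each of these genes passed the threshold. Fgf21 and Psat1 were scarce. Fgf21 had 0.600 to 1.43 CPM in sedentary livers and 0.164 to 0.522 CPM in exercised livers. Psat1 had 0.497 to 1.19 CPM in sedentary livers and 0.160 to 0.552 CPM in exercised livers, with overlap. Counts of called genes in the 4 lists stand beside the 42.4% of all genes tested, and no list was tested as a set. Since earlier results were known when the lists were chosen, their shares describe the listed genes only.

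**Figure D4:**
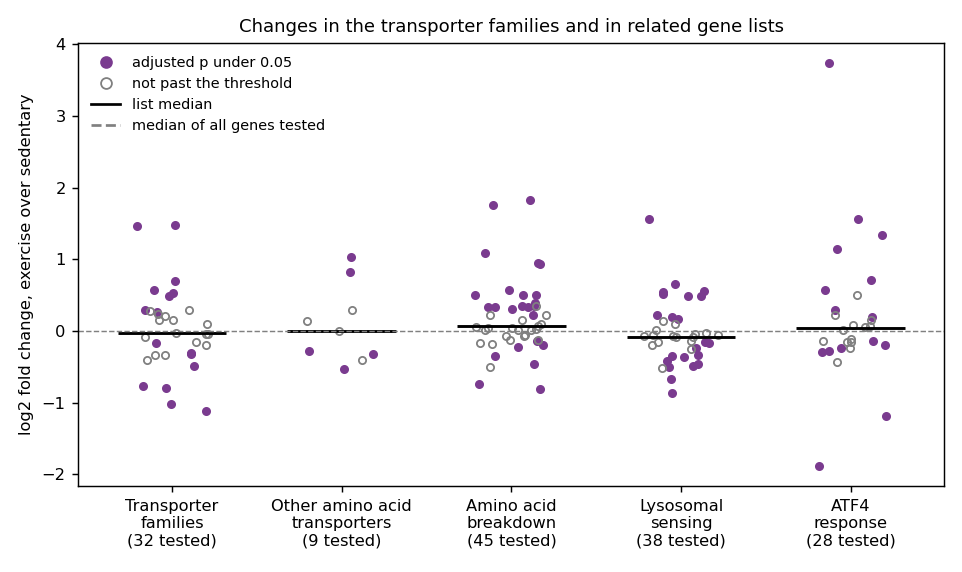
The log2 fold change (exercise over sedentary, vertical axis) of each tested gene of the transporter families and of the 4 lists, filled where it passed the test, with a bar at each list's median and a dashed line at the median of all genes tested. The medians lie between -0.08 and 0.07, and the highest point is Ddit4 at 3.74.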

How the data were processed

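Per the labels, mRNA-Seq libraries were made from the total RNA of 12 livers, and groups were taken from the sample labels. The submitters' processing notes name Bowtie2 2.3.4.3, RSEM 1.3.1 and the build mm10. The annotation and the strand setting are not given in the sources used here. The authors deposited estimated counts per gene, of which 31.3% are not whole, and FPKM, which the authors scaled for transcript length and depth.

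Estimated counts were rounded and filtered (filterByExpr, minimum count 10), scaled by TMM and fitted in R 4.3.3 by the robust quasi-likelihood method of edgeR 4.0.16, with exercise alone in the model. Benjamini-Hochberg adjustment ran over 12344 genes at a threshold of 0.05. The biological coefficient of variation was 11.3%. Standard errors are the absolute log2 fold change over the square root of F. DESeq2 1.42.0 and limma 3.58.1 served as alternatives, with other scalings, filters and left-out livers. Lists, members and tests were chosen with earlier results of these data known. Full statistics go to called genes with an absolute log2 fold change of at least 0.5 or a mean of at least 10 CPM, and up to 4 genes in each direction with the smallest p are named per list. Ass1, Asl and the other urea cycle genes were added after their values were seen. Gene coordinates are RefSeq GRCm38.p6, matched by gene ID, and overlaps come from GENCODE. The fit was also run on counts simulated from the mean levels of these data, with the same dispersion for every gene. That run does not show how the fit handles genes that differ in spread. Counting error is small at this depth except for genes with few counts. Python 3.11.15 with pandas 2.3.3 and numpy 2.4.6 was used for the rest.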

Additional observations from a re-analysis of the deposited data

Results flagged for a closer look

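In 64 groups of 6 livers (32 genes in both groups), the gap between the most extreme liver and its nearest neighbour was compared with the whole range of the group. In 5 groups its share of the range was above Dixon's 95% critical value, where chance at 1 in 20 gives 3.2. Slc1a2 in Exercise replicate 3 stood at 188 CPM against 142 for the next liver (0.767 of the range). The same liver had the highest Slc38a4, 997 CPM against 882 (0.677). Slc3a2 was low in Exercise replicate 4, at 47.8 CPM against 52.7 (0.683). Slc6a13 was high in Sedentary replicate 3, at 254 CPM against 225 (0.660), and Slc1a6 was high in Sedentary replicate 2, at 1.29 CPM against 0.816 (0.687). Without the liver in question, the calls of Slc1a2, Slc38a4 and Slc3a2 were kept, that of Slc6a13 was lost, and Slc1a6 did not pass the threshold with or without it.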

How the results depend on the processing

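The count of 8 higher and 8 lower genes became 7 to 9 higher and 7 to 8 lower when 1 liver was left out, 6 to 9 higher and 8 lower under other scalings, filters and tools, and 6 and 7 at an adjusted p under 0.01. Of the 16 called genes, 12 were called in each of the 12 fits without 1 liver and each of the 11 other fits, which include one without Exercise replicates 1 and 3 together, chosen after seeing the data. The exceptions were Slc3a1, Slc3a2, Slc6a13 and Slc38a9. At an adjusted p under 0.01 the called genes for other amino acid transporters went from 5 to 3, by the stricter limit itself. Genes near 0 changed sign: Slc38a10 ranged from -0.061 to 0.0085 and Slc6a8 from -0.10 to 0.035 with 1 liver left out, and Slc6a9 was at 0.0085 without Exercise replicates 1 and 3 (log2 fold changes). Scaling by library size alone shifted the median of all genes to -0.098. With the replicate number as a replicate block, 8 genes were higher and 8 lower. Livers with the same number correlated at -0.099 to 0.16 in their deviations from the group means, so the numbers were not taken to pair the livers. Depth limits the genes with few counts.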
